A study of Mus musculus with 15 samples.

Results

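Smooth muscle contractile genes are described here in the cecum wall of mice given antibiotics or water. The set holds 34 genes, found by symbol among the 45804 genes of the deposited FPKM table, and 32 of them were high enough to be tested among 11971 genes. FPKM is the number of fragments of a gene scaled to its length and to a measure of the depth of the library. The list was chosen with the AIMD and Vehicle values of this same table known, so the differences between groups given below describe the members, and no p-value is given for them.

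Wild-type C57BL/6 mice were gavaged repeatedly for 30 days with a mixture of neomycin, ampicillin, metronidazole and vancomycin that also held the antifungal amphotericin B (AIMD, antibiotic-induced microbiome depletion, n = 7), or with water alone (Vehicle, n = 8). All mice were listed as 20 weeks old. Each mouse gave 1 library of polyadenylated RNA from the whole cecum, emptied of its content, so muscle, mucosa, nerves and vessels were read together. Reads on genes numbered between 8679678 and 18108581 in AIMD mice and between 4372415 and 14405945 in Vehicle mice. Vehicle replicate 8 was the shallowest library of all, and AIMD replicate 4 was the shallowest of its group.

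Visceral smooth muscle contracts when calcium entering the cell activates myosin light chain kinase. The kinase phosphorylates the regulatory light chain of smooth muscle myosin, which then pulls on actin filaments that carry tropomyosin, caldesmon and calponin. Actin filaments are anchored in dense bodies and in dense plaques of the membrane, which desmin filaments connect. Many genes of this apparatus are switched on by serum response factor (SRF) with its coactivator myocardin, through a short DNA element called the CArG box.

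The promoters of the members are shown first, as background on the CArG box. Whether the boxes bear on the values of the members was not tested. RefSeq windows (GRCm38.p6, 250 bases before to 50 bases after a start site) matched 28 of the 34 members. The CArG box was searched as CC, 6 bases that are each A or T, and GG, which reads the same way on both strands. It stood in the windows of 3 of these 28 members, Myl9, Ldb3 and Vcl, or 10.7%, against 1.81% of all 27025 genes with a window and 1.63% of the 32851 windows. Acta2 held no such box, but 2 runs that differ from it by 1 letter. A box or a run that is 1 letter off stood in 46.4% of the members with a window and in 23.8% of all genes with one. The stretches below run 5′ to 3′ on the strand of the gene and end before the start site. Capitals mark the CArG box, or in Acta2 the runs that are 1 letter off it.
Myl9, chr2:156775273-156775342, plus strand: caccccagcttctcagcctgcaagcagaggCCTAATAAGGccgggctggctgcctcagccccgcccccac
Ldb3, chr14:34588682-34588746, minus strand: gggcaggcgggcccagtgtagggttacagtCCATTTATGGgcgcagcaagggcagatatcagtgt
Vcl, chr14:20929148-20929210, plus strand: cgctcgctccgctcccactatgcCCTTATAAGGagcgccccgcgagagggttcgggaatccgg
Acta2, chr19:34255374-34255487, minus strand: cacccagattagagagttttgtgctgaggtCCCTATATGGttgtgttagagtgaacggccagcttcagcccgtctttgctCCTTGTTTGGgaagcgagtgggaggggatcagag

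The box began 161 bases before the start of Myl9, 227 bases before that of Vcl, and 35 or 109 bases before the 2 start sites of Ldb3. Of these 3 genes Myl9 and Ldb3 were lower in AIMD mice and Vcl was not called, as given below. A match is a run of letters and not a measured binding site.

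The defining genes of smooth muscle were present in every mouse. Across the 15 libraries the lowest FPKM was 57.1 for Actg2 (enteric actin), 33.2 for Acta2 (smooth muscle alpha-actin), 7.7 for Myh11 (smooth muscle myosin heavy chain), 95.9 for Tagln (transgelin, an actin-binding protein), 10.5 for Cnn1 (calponin) and 8.7 for Des (desmin). In median Vehicle FPKM, a level per length, the members ran from Tagln at 500.5, Actg2 at 267 and Acta2 at 189 down to Kcnma1 at 0.623, Cacna1c at 0.172 and Myocd at 0.0597. All members together took between 0.146% and 0.449% of the reads on genes in AIMD mice (median 0.366%) and between 0.244% and 1.36% in Vehicle mice (median 0.446%). These ranges overlapped.

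Of the 32 members tested, 16 were lower in AIMD mice and 0 were higher at an adjusted p under 0.05 in a limma fit over all genes. At an unadjusted p under 0.05 the same fit had 20 lower and 1 higher, and limma voom on recovered reads called 16 lower and 0 higher, with Acta2 gained and Cryab lost. Over all tested genes 16.6% were called lower and 19.4% higher, but the members were chosen with this contrast known and nothing is read from their share. The median log2 fold change was -0.86 over the tested members and 0.01 over all tested genes. In RNA of a whole organ wall, fewer muscle cells and less RNA per muscle cell cannot be told apart.

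**Figure D1:**
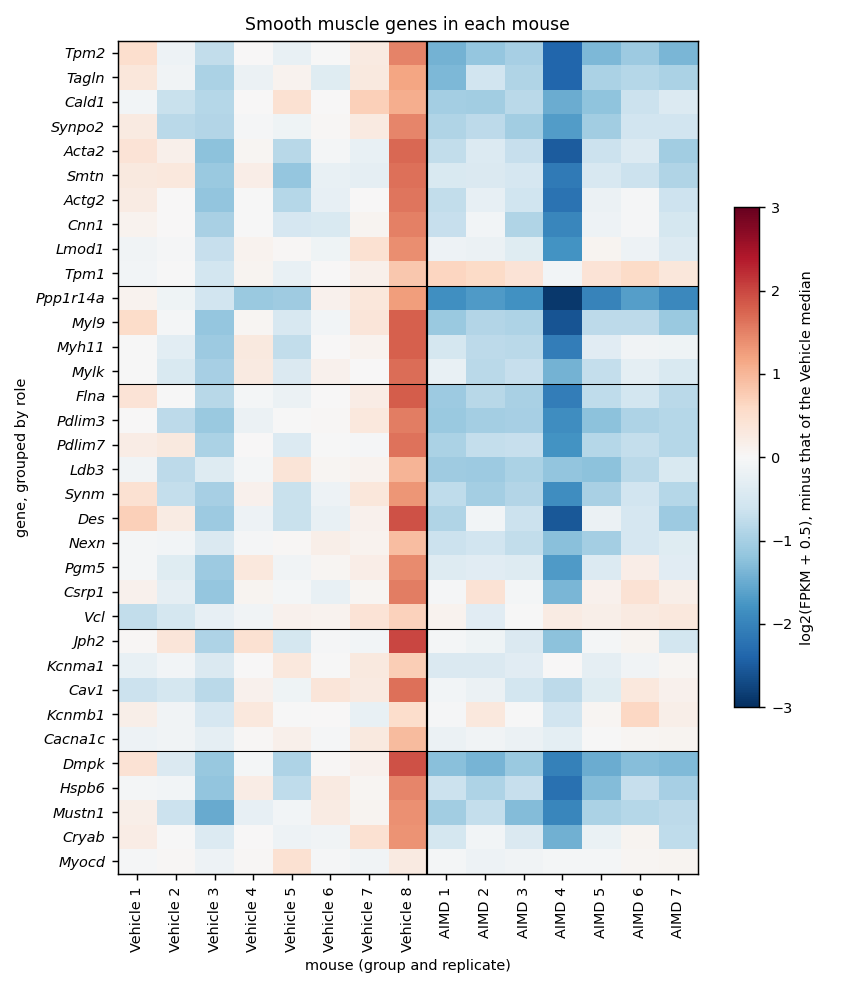
Each row is a member, grouped by role, and each column a mouse, with colour for log2(FPKM + 0.5) minus that of the gene's Vehicle median. Vehicle replicate 8 is red for nearly every gene and AIMD replicate 4 is the darkest blue of its group for most. Most members, Actg2 and Myh11 included, lie below their Vehicle median in all 7 AIMD mice. The ratio of the AIMD to the Vehicle median was lowest in Ppp1r14a (0.235), Dmpk (0.372) and Tpm2 (0.394).

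One mouse of each group stood apart. Vehicle replicate 8 had the highest Vehicle value of 33 of the 34 members, all but Myocd, at a median of 2.95 times the median of the other 7 Vehicle mice. It exceeded 1.5 times that median in all 34 members and in 20.7% of all tested genes. AIMD replicate 4 had the lowest AIMD value of 30 members, at a median of 0.401 of the median of the other 6 AIMD mice. It lay under that median by a factor of more than 1.5 in 29 members and in 14.5% of all tested genes. Vehicle replicate 3 was the lowest Vehicle mouse for 30 members, so the Vehicle group ranged widely on its low side also. Groups are therefore given below with all mice, and again without AIMD replicate 4 and Vehicle replicate 8, a choice made after their values were seen.

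Markers of other cells differed in these libraries too. In Vehicle replicate 8 the summed FPKM was 3.41 times the median of the other Vehicle mice for the 12 enteric neuron markers, 2.91 times for the 8 markers of vascular mural cells, 1.88 times for the 8 fibroblast markers and 0.896 times for the 14 epithelial markers. In AIMD replicate 4 the same sums were 0.629, 0.449, 0.671 and 1.02 times the median of the other AIMD mice. The mural sum was mostly Rgs5, which was at 237 FPKM in Vehicle replicate 8, where the sum was 250.5 FPKM. In AIMD replicate 4 Rgs5 was at 0.418 and Cspg4, another mural marker, at 1.1 times the median of the other AIMD mice. The remaining lists were striated muscle, mesothelium, interstitial cells of Cajal, enteric glia, endothelium and immune cells. In that order their sums were 3.61, 2.18, 1.75, 1.54, 1.48 and 1.45 times in Vehicle replicate 8. In AIMD replicate 4 they were 0.489, 0.706, 1.06, 1.31, 0.991 and 1.61 times, so not all sums were low there. The glial sum, at 1.31 times, did not follow S100b and Gfap. In that mouse S100b was at 0.232 and Gfap at 0.565 times the median of the other AIMD mice. The part of tissue composition in the members' values was not tested.

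The thin filament genes split. Tpm2, which encodes beta-tropomyosin, was at 31.2, 64.4 and 81.2 FPKM (lowest, median and highest) in AIMD mice and at 97.7, 164 and 457 FPKM in Vehicle mice. All 7 AIMD mice lay below the lowest Vehicle mouse. The log2 fold change was -1.54 ± 0.27 (SE) with all mice and -1.18 ± 0.17 without the 2 mice that stood apart. Tpm1, the gene of alpha-tropomyosin, was at 62.4, 88.5 and 104 FPKM in AIMD mice and at 44.5, 65.9 and 116 FPKM in Vehicle mice. It was not called with all mice, with a log2 fold change of 0.39 ± 0.17. Without AIMD replicate 4 and Vehicle replicate 8 it was called higher, at 0.58 ± 0.12, and every remaining AIMD mouse (83.7 FPKM or more) lay above every remaining Vehicle mouse (73.9 FPKM or less). In that smaller set of mice, 20.1% of all tested genes were called higher and 7.7% had every AIMD mouse above every Vehicle mouse. Tpm1 is also active outside muscle, and which cells gave its RNA was not tested.

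Tagln fell from a Vehicle median of 500.5 FPKM (257 to 1136) to an AIMD median of 259.6 FPKM (95.9 to 334), a log2 fold change of -1.17 ± 0.28. The groups overlapped, with 2 of 7 AIMD mice below the lowest Vehicle mouse. In the annotation, 67.9% of the Tagln exon bases lie opposite exons of Pcsk7 and Gm48529, and whether reads were counted by strand was not given in the sources used here. Cald1, the gene of caldesmon, was called lower at -1.02 ± 0.25, and Synpo2, an actin-bundling protein of the Z-disc and dense body, at -0.97 ± 0.27. Neither actin was called. Acta2 stood at 33.2, 118 and 143 FPKM in AIMD mice and at 81.1, 189 and 622 FPKM in Vehicle mice, with a log2 fold change of -0.92 ± 0.37. Actg2 stood at 57.1, 175 and 262 FPKM in AIMD mice and at 118, 267 and 817 FPKM in Vehicle mice, at -0.61 ± 0.36. In both genes 1 AIMD mouse, replicate 4, lay below every Vehicle mouse. Smtn (smoothelin, a marker of contractile smooth muscle), Cnn1 and Lmod1 (leiomodin, which starts actin filaments) lay between -0.75 and -0.55 and were not called. Acta2 passed the threshold with limma voom and when Vehicle replicate 3 or Vehicle replicate 5 was left out, and leaving out Vehicle replicate 5 did so for Smtn. In the annotation 16.3% of the Smtn exon bases lie opposite exons of other genes. Without the 2 mice the values of Actg2, Cnn1 and Lmod1 were -0.11 ± 0.22, -0.14 ± 0.20 and -0.14 ± 0.15.

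**Figure D2:**
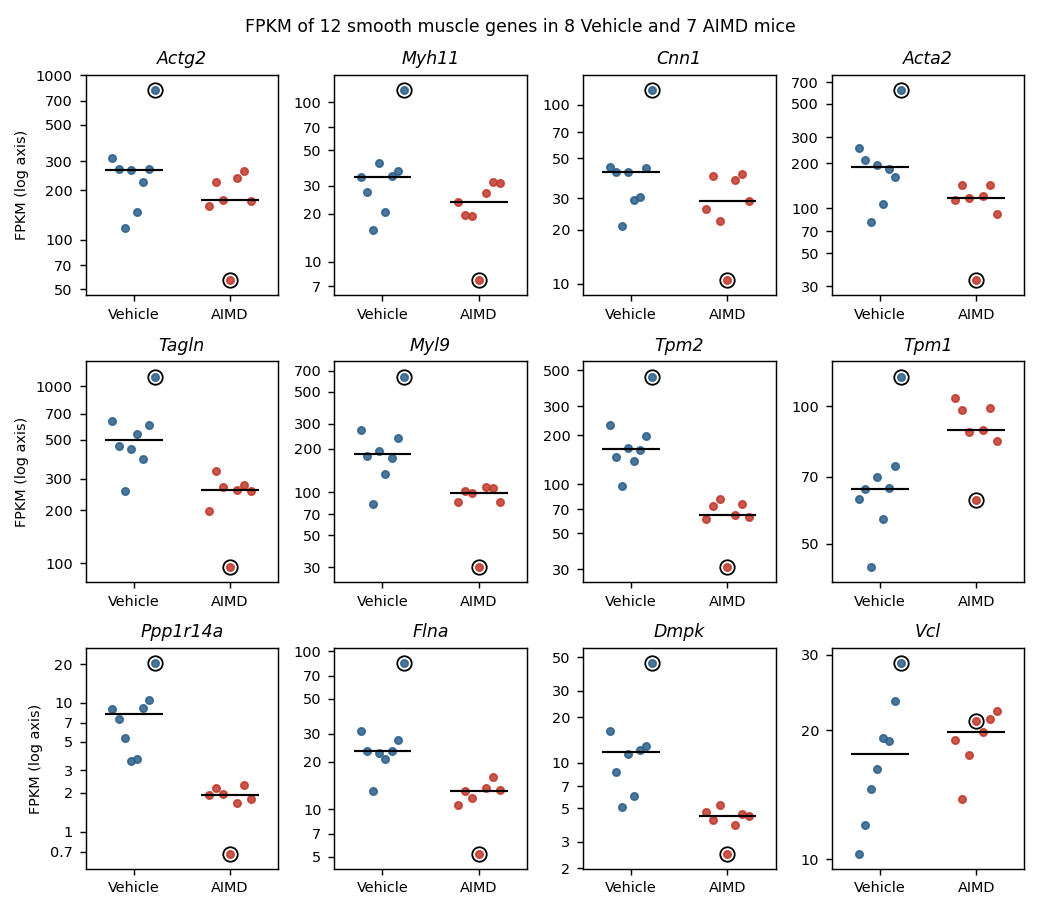
FPKM on a log axis for 12 members in 8 Vehicle and 7 AIMD mice, with 1 point per mouse, a line at the group median and a ring around Vehicle replicate 8 and AIMD replicate 4. Tpm2 and Ppp1r14a show no overlap between the groups, Actg2, Myh11 and Cnn1 overlap widely, and Tpm1 is the reverse of Tpm2 apart from the ringed mice.

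The genes that set the activity of myosin moved unequally. Ppp1r14a encodes an inhibitor of myosin light chain phosphatase, which keeps the light chain phosphorylated. It was at 0.678, 1.94 and 2.29 FPKM in AIMD mice and at 3.55, 8.25 and 20.2 FPKM in Vehicle mice. All 7 AIMD mice lay below the lowest Vehicle mouse, and its log2 fold change of -1.84 ± 0.30 was the lowest of the 32 tested members. This gene rested on few reads, between 3 and 20 per AIMD mouse and between 10 and 54 per Vehicle mouse. Myl9, the regulatory light chain itself, was at 30.2, 97.9 and 108 FPKM in AIMD mice and at 82.5, 185 and 639 FPKM in Vehicle mice. Only AIMD replicate 4 lay below every Vehicle mouse, and the log2 fold change was -1.29 ± 0.35. Myh11 was at 7.7, 23.7 and 31.7 FPKM in AIMD mice and at 15.8, 34.2 and 120 FPKM in Vehicle mice. It was not called, at -0.69 ± 0.36, and neither was Mylk, the light chain kinase, at -0.68 ± 0.29. Without the 2 mice these values were -0.20 ± 0.21 for Myh11 and -0.31 ± 0.19 for Mylk. Mylk passed the threshold when Vehicle replicate 3 was left out.

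Among the genes of intermediate filaments, dense plaques and anchors, 6 of 10 were called lower, against 16.6% of all tested genes. Nothing is read from this share, since the members were chosen with the contrast known. Flna (filamin A, which crosslinks actin) was at 5.23, 13 and 15.9 FPKM in AIMD mice and at 13, 23.5 and 83.9 FPKM in Vehicle mice, with a log2 fold change of -1.18 ± 0.30. The PDZ and LIM domain proteins that bind alpha-actinin were called together: Pdlim3 at -1.12 ± 0.29, Pdlim7 at -1.04 ± 0.28 and Ldb3 at -1.0 ± 0.21. For Ldb3, 6 of 7 AIMD mice lay below the lowest Vehicle mouse. Synm, a partner of desmin in intermediate filaments, was called at -0.96 ± 0.29, and Nexn, an actin-binding protein of the Z-disc, at -0.81 ± 0.18. Des itself was not called. It was at 8.7, 33.9 and 50.5 FPKM in AIMD mice and at 24.6, 53.2 and 202 FPKM in Vehicle mice, and its log2 fold change of -0.96 ± 0.40 had the largest SE of the tested members. Without Vehicle replicate 3 it passed the threshold. The plaque protein Pgm5 (-0.53 ± 0.30), the LIM protein Csrp1 (-0.05 ± 0.32) and vinculin, Vcl (0.15 ± 0.19), were not called. For Vcl, 25.5% of the exon bases lie opposite exons of Ap3m1.

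Of the 4 tested genes of channels and membrane 0 were called by limma, 0 had an unadjusted p under 0.05 and 0 were called by limma voom. Kcnma1 was called lower in a fit with the cluster of each mouse by its clock genes as a factor (-0.32 ± 0.12). The large-conductance potassium channel of smooth muscle was read from both its subunits, Kcnma1 (alpha) at a log2 fold change of -0.29 ± 0.16 and Kcnmb1 (beta) at 0.05 ± 0.17. Jph2, which joins the plasma membrane to the calcium store, was at -0.50 ± 0.32, and Cav1, the coat protein of caveolae, at -0.25 ± 0.29. Cacna1c, the pore of the L-type calcium channel, was too low to be tested, at 0.051 to 0.213 FPKM in AIMD mice and 0.0573 to 0.798 FPKM in Vehicle mice. Myocd, the coactivator of SRF, was also too low, at 0 to 9 reads per mouse.

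In the last group, all 4 tested genes were called lower, against 16.6% of all tested genes, and again nothing is read from the share. Dmpk, a kinase of the myotonic dystrophy locus, was at 2.5, 4.41 and 5.22 FPKM in AIMD mice and at 5.11, 11.8 and 45.6 FPKM in Vehicle mice. Of the AIMD mice 6 of 7 lay below the lowest Vehicle mouse, and the log2 fold change was -1.41 ± 0.33. Hspb6, a small heat shock protein of muscle, was called at -1.05 ± 0.32, Mustn1, a small nuclear protein of the musculoskeletal system, at -1.01 ± 0.31, and Cryab, the chaperone alpha-B crystallin, at -0.65 ± 0.25. Cryab kept its call in 4 of the 15 fits that leave out 1 mouse, those without AIMD replicate 2 or 6 or Vehicle replicate 3 or 5, and 17.0% of its exon bases lie opposite exons of Hspb2.

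**Figure D3:**
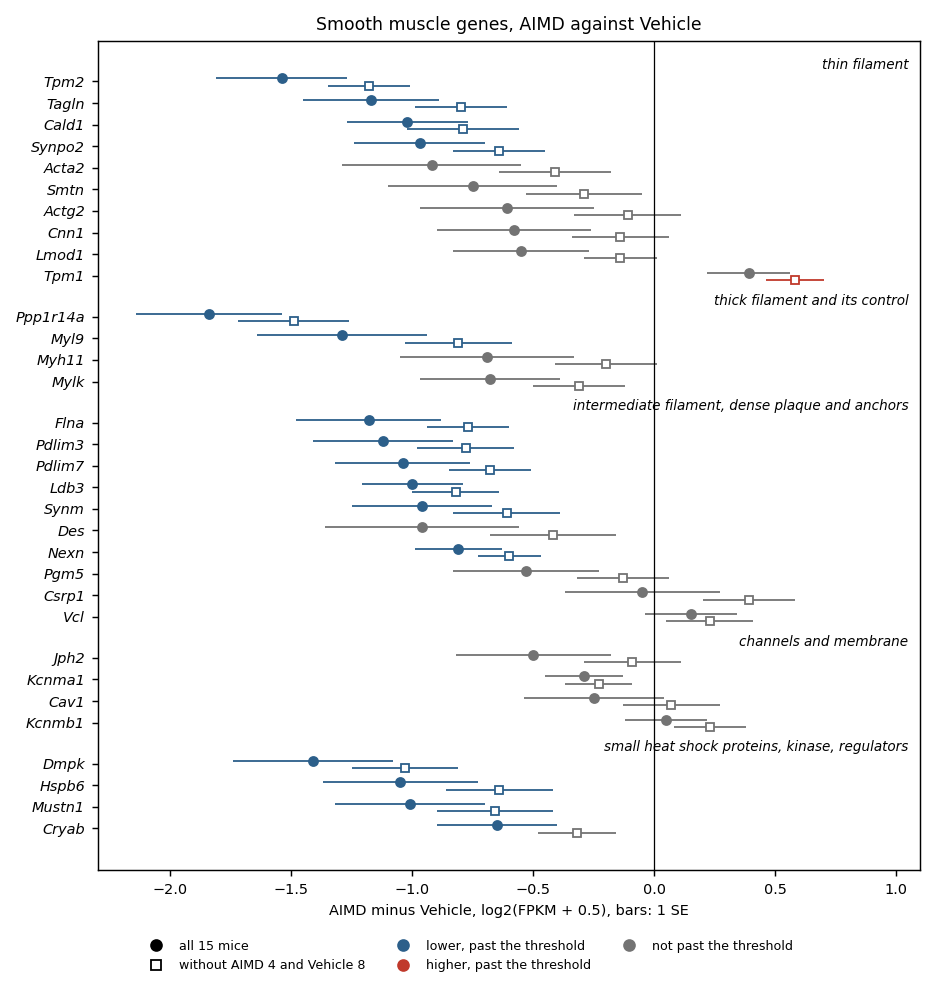
Log2 fold change of AIMD over Vehicle with 1 SE for the 32 tested members, ordered within each role, with all 15 mice (filled circles) and without AIMD replicate 4 and Vehicle replicate 8 (open squares). Leaving out both mice moves the members to the right, and 15 of the 16 genes called lower with all mice are called lower in both fits.

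Without AIMD replicate 4 and Vehicle replicate 8, 15 members were called lower, against 18.9% of all tested genes. Cryab was the member lost, at -0.32 ± 0.16. The median over the tested members moved to -0.41. With all mice the groups did not overlap for Tpm2 and Ppp1r14a, where every AIMD mouse was below every Vehicle mouse, as in 3.3% of all tested genes. Without the 2 mice both again did not overlap in that direction, as in 6.14% of all tested genes.

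The ratio of a member to Actg2 within the same mouse was taken as a measure that a common change of all muscle genes leaves alone. For Cnn1 this ratio was 0.128 to 0.185 in AIMD mice (median 0.161) and 0.134 to 0.198 in Vehicle mice (median 0.157), and the ranges overlapped. For Myl9 the ratio was 0.408 to 0.56 in AIMD mice (median 0.496) and 0.664 to 0.898 in Vehicle mice (median 0.777). For Ppp1r14a it was 0.00708 to 0.012 in AIMD mice (median 0.0104) and 0.0134 to 0.0454 in Vehicle mice (median 0.0282). The mice did not overlap in these ratios, nor in that of Pdlim7, and the remaining 28 of 31 members overlapped. Over all 11970 tested genes other than Actg2, 0.109% had every AIMD mouse below every Vehicle mouse in this ratio and 2.79% had every AIMD mouse above. Actg2 itself had a log2 fold change of -0.61, so the ratio of a gene that did not differ would lie higher in AIMD mice. For Tpm2 over Actg2 the medians were 0.361 and 0.723, and 6 of 7 AIMD mice lay below every Vehicle mouse. Set over Myh11 in place of Actg2, 0 of 31 members separated the groups, while 0.0835% of all genes were lower and 3.25% higher in every AIMD mouse. The 3 ratios therefore separated the groups over Actg2 but not over Myh11.

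The proportion of the 2 tropomyosins differed between the groups as well. Tpm1 over Tpm2 was 1.08 to 2.0 in the 7 AIMD mice (median 1.34) and 0.254 to 0.456 in the 8 Vehicle mice (median 0.408). The AIMD median was 3.29 times the Vehicle median, and the groups did not overlap, AIMD replicate 4 and Vehicle replicate 8 included. This pair was picked after its values were seen. Tpm2 alone already had all 7 AIMD mice below the lowest Vehicle mouse, so the separation of the ratio is not a further result. The share of other gene pairs that separate the groups was not computed.

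**Figure D4:**
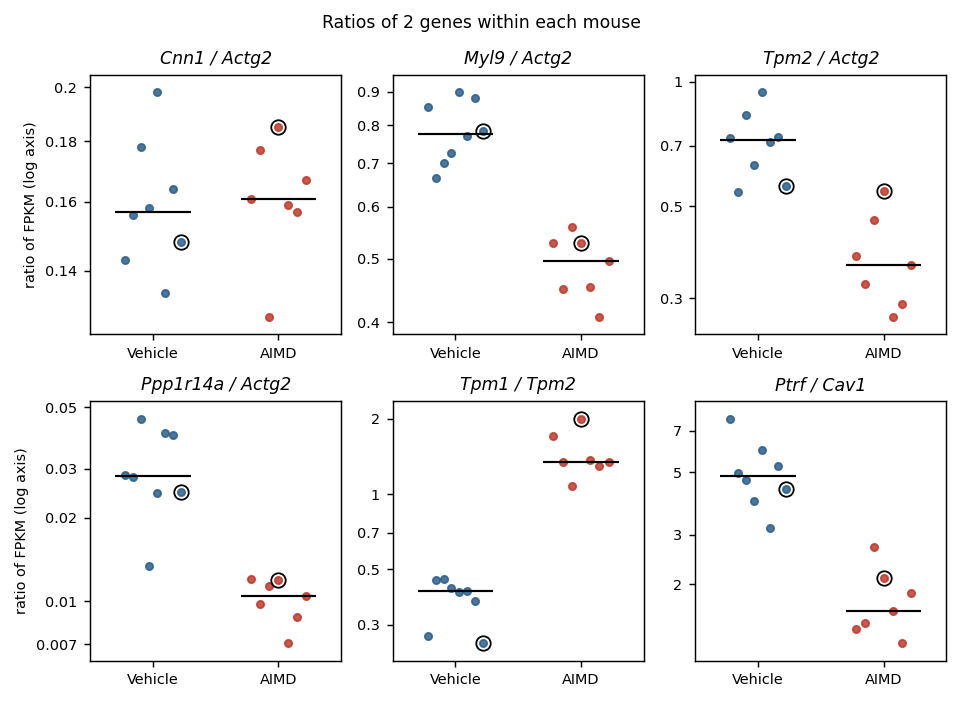
Ratio of the FPKM of 2 genes within each mouse, on a log axis, with 1 point per mouse, a line at the group median and a ring around Vehicle replicate 8 and AIMD replicate 4. Cnn1 over Actg2 is alike in both groups, Myl9 and Ppp1r14a over Actg2 are lower in every AIMD mouse, and Tpm1 over Tpm2 is higher in every AIMD mouse.

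The other genes of contraction, a list of 30 with 25 tested, had 5 called higher and 4 lower, shares close to the 19.4% and 16.6% over all tested genes, with a median log2 fold change of -0.01. Casq2, which binds calcium in the store, fell from a Vehicle median of 3.62 FPKM to 1.4 FPKM (log2 fold change -1.15 ± 0.16, limma adjusted p = 6.6e-05). Pln, which restrains the calcium pump of the store, fell from 1.99 to 0.735 FPKM (-1.21 ± 0.25, limma adjusted p = 0.00162). Ppp1r12a, the targeting subunit of myosin light chain phosphatase, rose from 4.62 to 7.45 FPKM (0.57 ± 0.18, limma adjusted p = 0.0227). Dapk3, a kinase that can phosphorylate the light chain, rose from 1.75 to 3.46 FPKM (0.74 ± 0.27, limma adjusted p = 0.0396). Dapk3 passed the threshold in 6 of the 15 fits that leave out 1 mouse, and not without the filter on low values. Ppp1r12a passed in 13 of these 15 fits, those without AIMD replicate 5 or 6 being the exceptions. The other targeting subunit on the list, Ppp1r12b, named after its values were seen, fell (-0.82 ± 0.27, limma adjusted p = 0.0252), so the 2 subunits moved in opposite directions.

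Of 32 tested genes of the smooth muscle cytoskeleton and adhesion that are not members, 8 were called higher and 6 lower. Over all tested genes 19.4% were called higher and 16.6% lower. The lowest values belonged to cavins, the proteins that coat caveolae together with Cav1. Ptrf fell from a Vehicle median of 53.0 FPKM (30.2 to 162) to 15.1 FPKM in AIMD mice (13.8 to 23.4; log2 fold change -1.74 ± 0.26, limma adjusted p = 0.000119). Prkcdbp fell from 26.0 FPKM (15.7 to 40.1) to 8.05 FPKM (5.34 to 9.42; -1.70 ± 0.19, limma adjusted p = 6.26e-06). For both genes every AIMD mouse lay below every Vehicle mouse, as in 3.3% of all tested genes. They were named as the largest falls of this list. Cav1, whose median was 10.2 FPKM in AIMD and 11.5 FPKM in Vehicle mice, was not called. Within a mouse Ptrf over Cav1 was 1.24 to 2.72 in AIMD mice and 3.18 to 7.73 in Vehicle mice. On the other side, Fhl1, a LIM protein of muscle, rose from 12.5 to 27.4 FPKM (0.93 ± 0.20, limma adjusted p = 0.00206). Tpm4, a tropomyosin of non-muscle cells, rose from 18.0 to 31.1 FPKM (0.71 ± 0.14, limma adjusted p = 0.00123), the same direction as Tpm1 without the 2 mice.

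Of 12 tested transcription factors of the muscle programme, 3 were called higher and 3 lower, not far from the shares over all tested genes. Klf4, a repressor of contractile genes in smooth muscle that is also an epithelial factor, rose from 89.3 to 132 FPKM (0.60 ± 0.17, limma adjusted p = 0.0121). Klf5 rose from 6.36 to 9.94 FPKM (0.60 ± 0.19, limma adjusted p = 0.0211). Foxf2, a factor of the gut mesenchyme, fell from 3.41 to 1.9 FPKM (-0.76 ± 0.20, limma adjusted p = 0.00794). Elk1 fell from 1.21 to 0.527 FPKM (-0.66 ± 0.11, limma adjusted p = 0.000178). Every AIMD mouse lay below every Vehicle mouse for Elk1, as in 3.3% of all tested genes. Srf, named after its values were seen, was not called (-0.23 ± 0.21, limma adjusted p = 0.402). Of 5 RNA-binding proteins of muscle, 3 were called lower, against 16.6% of all tested genes. Rbpms2, a splicing regulator of smooth muscle, fell from 19.1 to 5.52 FPKM (-1.69 ± 0.28, limma adjusted p = 0.000246), and Mbnl1, a regulator of muscle splicing, from 9.98 to 5.5 FPKM (-0.84 ± 0.14, limma adjusted p = 0.000309). Transcript isoforms of the members cannot be read from values per gene.

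Markers of the cells that lie in or near the muscle layer were also read. For comparison, 16.6% of all tested genes were called lower and 19.4% higher. Of the 7 tested enteric neuron markers 5 were called lower, led by Tubb3 (-2.27 ± 0.35, limma adjusted p = 0.000151) and Uchl1 (-2.03 ± 0.37, limma adjusted p = 0.000554), and their summed FPKM was 10 to 34.6 in AIMD and 12.8 to 125 in Vehicle mice. Of 4 glial markers 3 were lower, led by S100b (-1.53 ± 0.29, limma adjusted p = 0.000676), with sums of 38.2 to 83.3 and 45.6 to 90 FPKM. No mouse exceeded 5.54 FPKM for S100b or 2.33 FPKM for Gfap, so the glial sums rested mostly on other genes of the list. Interstitial cells of Cajal, the pacemakers of gut muscle, had 0 of 3 tested markers called by limma or limma voom, and 1 at an unadjusted p under 0.05. One of them, Thbs4, was called lower by limma with a clock-gene score as a covariate, with the clock-gene cluster as a factor, and without Vehicle replicate 3 or 4. Their sums were 1.95 to 3.47 FPKM in AIMD and 2.24 to 5.71 FPKM in Vehicle mice. Mural cells of vessels, which share contractile genes with visceral muscle, had 2 of 5 markers lower, with Rgs5 at -1.17 ± 0.32 (limma adjusted p = 0.00942), and sums of 22.3 to 54.7 and 40.6 to 250.5 FPKM. Pdgfrb (-0.07 ± 0.13), Abcc9 (-0.21 ± 0.26) and Kcnj8 (0.39 ± 0.24), named after their values were seen, were not called. Without AIMD replicate 4 and Vehicle replicate 8, Kcnj8 was called higher, at 0.68 (limma adjusted p = 0.00802). Fibroblasts had 1 of 7 markers higher and 2 lower, endothelium 1 of 6 lower, mesothelium 1 of 3 higher and immune cells 2 of 7 higher. The fibroblast markers Col3a1 (higher) and Lum (lower) passed in 6 and 5 of the 15 fits that leave out 1 mouse. The 2 immune markers called higher were Cd68 and Csf1r. The median log2 fold change of the immune list was -0.32, with median sums of 39.0 FPKM in AIMD and 56.3 FPKM in Vehicle mice. Of the 14 epithelial markers 4 were higher and 1 lower, and their sums were 6870 to 10667 FPKM in AIMD and 6509 to 8824 FPKM in Vehicle mice. Striated muscle had 0 of 3 called by limma, with 1 higher at an unadjusted p under 0.05 and 1 higher by limma voom. The part of these cell types in the members' values was not tested.

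The time of day at which each mouse was killed is not in the labels. The mice of each group were cut into 2 clusters at the widest gap in a score of circadian clock genes. This rule gives 2 clusters whatever the data. In AIMD mice the cut lay between scores of -0.305 and 0.85, with a further gap from -1.983 to -0.998. Cluster 1 held Vehicle replicates 5 to 8 and AIMD replicates 4 to 7, and cluster 2 held Vehicle replicates 1 to 4 and AIMD replicates 1 to 3. Vehicle replicate 8 and AIMD replicate 4 were both in cluster 1. Between AIMD and Vehicle mice, 1 of the 3 clock genes of one phase and 0 of the 8 of the other were called by limma, with 0 of these 8 at an unadjusted p under 0.05 or by limma voom. Of the 8, Tef was called higher under the replicate block, the clock-gene score and the cluster as a factor, and within cluster 2. Within cluster 1, 15 members were called lower, against 9.47% of all tested genes. Within cluster 2, 4 members were called lower, against 7.08% of all tested genes. These 4 were Ppp1r14a at -1.36 ± 0.26, Tpm2 at -1.10 ± 0.26, Flna at -0.84 ± 0.25 and Ldb3 at -0.70 ± 0.19, and each was also lower in cluster 1, at -2.28 ± 0.44, -1.92 ± 0.39, -1.51 ± 0.45 and -1.32 ± 0.25. Tpm1 was called higher within cluster 2 (0.68 ± 0.19), where 8.65% of all tested genes were called higher, and was at 0.13 ± 0.24 within cluster 1. Whether the difference between treatments itself differed between the clusters was not tested.

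**Figure D5:**
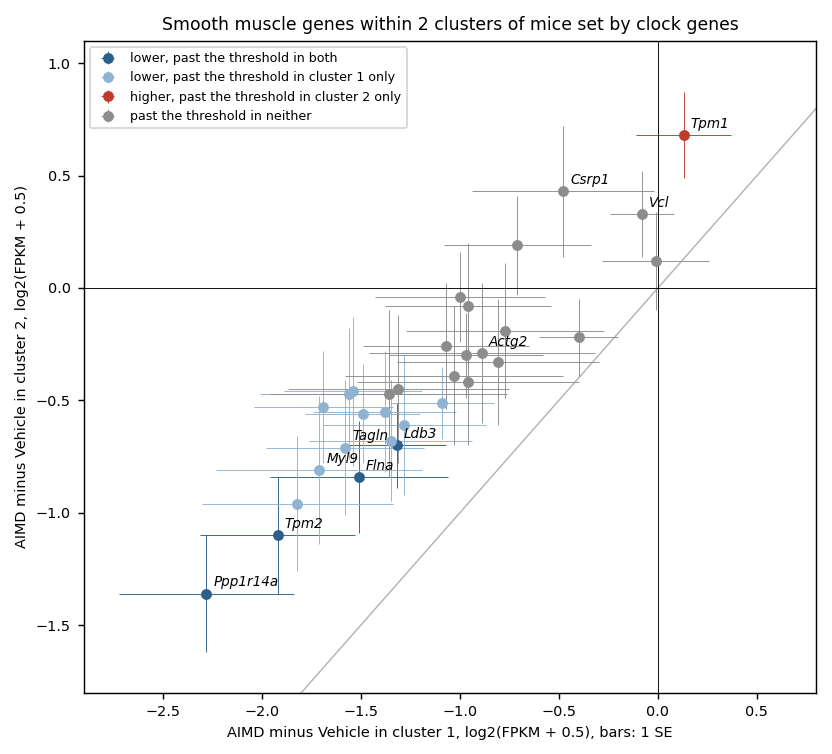
Log2 fold change of AIMD over Vehicle with 1 SE for the 32 tested members within cluster 1 (horizontal) and cluster 2 (vertical) of mice set by clock genes, with a grey line where both are equal. Ppp1r14a, Tpm2, Flna and Ldb3 are past the threshold in both clusters, and all 32 points lie above the line, so each value is lower in cluster 1.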

How the data were processed

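Per the labels and the methods of the study, polyadenylated RNA of the cecum was read as 50-base single ends from stranded libraries. The authors aligned them to GRCm38 using STAR, assigned reads to GENCODE genes using featureCounts, and deposited 1 FPKM value per gene and mouse. How counts became FPKM is not given in the sources used here. The depth that the values imply was not the number of reads on genes. It was 5162135.7 against 6486310 in Vehicle replicate 5 and 13139115.4 against 11244642 in AIMD replicate 6. Of 45808 rows, 4 with a repeated symbol were left out. FPKM were divided by size factors (1.01 in every mouse), and genes with at least 0.5 FPKM in at least 7 mice were tested on log2(FPKM + 0.5), which understates changes of low genes. limma 3.58.1 (R 4.3.3, eBayes with trend, two-sided) compared 7 AIMD with 8 Vehicle mice, with Benjamini-Hochberg adjustment over 11971 genes and a threshold of 0.05. Groups and replicate numbers came from the sample labels. The study's other factor, time of sacrifice, is not in the labels and was not used.

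Reads per gene were recovered as whole multiples, within 0.05 read, of what 1 read is worth in FPKM. The annotated exon length gave them for 68.8% of genes above 0 and another length for 31.2%, and all 34 members were recovered; depth limits low genes such as Ppp1r14a. Both steps were tested on simulated data. Every member was described. From each other list up to 4 genes could be named, and not all of these are. They were the 2 largest rises and 2 largest falls among those past the threshold, or else the 2 with the highest mean FPKM. Exceptions are marked. Members and lists were chosen with earlier results of these data known. The clusters of mice by clock genes, the fits without 2 mice, and the ratios were chosen after seeing the data. Exon overlaps used GENCODE M21. Alternatives covered scaling, pseudocount, filter, replicate block, clock covariates, limma voom, array weights and each mouse left out.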

Additional observations from a re-analysis of the deposited data

Results flagged for a closer look

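Each of the 32 members that were tested was checked, on the log2 scale, for a mouse far from the rest of its group, which made 64 groups of 7 or 8 mice. The measure was the gap between the outermost mouse and its nearest neighbour as a share of the range of the group. It passed Dixon's 95% critical value in 26 groups of 24 members, where chance alone would flag about 1 group in 20, and every one of these was AIMD replicate 4 at the low end or Vehicle replicate 8 at the high end. Since the members vary together, these groups are not independent.

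AIMD replicate 4 was far below the other AIMD mice in 20 members. The gap as a share of the range was, by gene, Acta2 0.692, Actg2 0.681, Myh11 0.646, Tagln 0.574, Des 0.592, Myl9 0.815, Tpm1 0.572, Tpm2 0.701, Smtn 0.717, Lmod1 0.744, Synpo2 0.576, Synm 0.652, Flna 0.636, Pgm5 0.69, Csrp1 0.73, Pdlim3 0.625, Pdlim7 0.775, Hspb6 0.593, Ppp1r14a 0.714, Dmpk 0.59. The 6 members in which Vehicle replicate 8 was far above the other Vehicle mice gave shares of the range as follows: Cnn1 0.565, Mylk 0.528, Flna 0.534, Csrp1 0.53, Cav1 0.528, Nexn 0.551. In Myl9, where the share was largest, AIMD replicate 4 was at 30.2 FPKM and the next AIMD mouse at 85.1 FPKM.

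AIMD replicate 4 held 8679678 reads on genes and Vehicle replicate 8 held 4372415, the fewest of their groups. The part of depth, tissue composition or time of day in these values was not tested.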

How the results depend on the processing

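The count of members called lower was between 14 and 16 under the 10 alternatives of scaling, pseudocount, filter, replicate block, clock score, limma voom and array weights. It was 15 to 19 when each mouse was left out in turn, and the median log2 fold change of the members then ran from -0.98 to -0.66 and the number of genes called from 3551 to 4638. Without the filter the median over all 34 members was -0.78. With array weights the median was -0.49, and with both AIMD replicate 4 and Vehicle replicate 8 left out it was -0.41. The cause was not tested. The members called higher numbered 0 with all mice, 1 under the replicate block, 1 under array weights and 1 with both AIMD replicate 4 and Vehicle replicate 8 left out, and 0 to 1 over the fits that leave out 1 mouse. That member was Tpm1, called without AIMD replicate 4 or without Vehicle replicate 8. With the replicate block, 15 members were called lower and 4647 genes were called in all. The deviations of mice with the same number correlated between -0.35 and 0.432, so they were not taken as pairs, although the numbers follow the clusters of mice by clock genes. Cryab kept its call under 7 of 11 alternatives, the cluster of mice as a factor included, and 4 of 15 fits that leave out 1 mouse. Leaving out Vehicle replicate 3 added calls for Acta2, Des and Mylk, and leaving out Vehicle replicate 5 added Acta2 and Smtn. Within cluster 1 of the mice set by clock genes 2477 genes were called. Within cluster 2 there were 1883, with 4 members lower and 1 higher, where fewer mice were compared. With the cluster as a factor 17 members were lower, Kcnma1 being added. No called result reversed. Signs turned for some members that were not called, among them these: Csrp1 and Cav1 were above 0 without the 2 mice and within cluster 2, and Vcl and Kcnmb1 were below 0 within cluster 1. Depth limits Ppp1r14a, Myocd and Cacna1c, which rested on few reads.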
